A study of Drosophila melanogaster with 4 samples.

Results

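Isolated NURF301 sites are regions of the combined list that stand alone on a chromosome arm, with at least 20000 bp of sequence free of listed regions on each side. They were chosen by position, as regions on X, 2L, 2R, 3L or 3R whose gaps to the previous and to the next region were both 20000 bp or more. The rule left out the first and the last region of each arm. It gave 392 members out of 7956 regions on the 5 large arms, or 4.93%, and out of 8224 regions in the whole combined list. They were set beside 1790 crowded regions, whose gaps were both under 5000 bp. The 392 members covered 811 kb, against 4611 kb for the crowded regions.

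The study mapped NURF301 by chromatin immunoprecipitation and sequencing (ChIP-seq) with 2 ChIP libraries and 2 input libraries, where input is the starting chromatin sequenced without pull-down. All 4 samples are Drosophila melanogaster embryos of the Oregon-R strain, wild type in genotype and 14 to 16 h old, and the ChIP libraries used the antibody NURF301 Q2602. Chromatin of whole embryos mixes all cell types, so a site bound in few cells and a site bound weakly in all cells cannot be told apart. Whether replicates 1 and 2 were separate embryo collections is not labelled, and their spread could be technical alone.

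NURF301, encoded by E(bx), is the large scaffold subunit of the nucleosome remodelling factor NURF. The complex slides nucleosomes along DNA with its ATPase ISWI. In flies it is brought to chromatin by sequence-specific factors such as GAGA factor and by modified histone tails that its PHD finger reads, and it opens promoters of developmental and heat-shock genes. Fly genes are packed closely in much of the euchromatin, and less closely in other parts.

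Each region has a deposited score, read as a log2 ratio of ChIP to input reads after 1 scaling constant per list. A region counts as found in a replicate when it overlaps a region of that replicate's list by 1 bp or more. The gaps that chose the members come from the same calls and the same libraries as the scores, widths and overlaps. All values are therefore given as a description, without a test. The 95% Wilson intervals cover counting of regions only.

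Members were spread over all 5 arms, with most on 2L and fewest on 2R. There were 102 on 2L, 91 on 3R, 84 on 3L, 65 on X and 50 on 2R. Per Mb, isolated regions numbered 4.43 on 2L, 3.42 on 3L, 3.26 on 3R, 2.90 on X and 2.36 on 2R. The share of an arm's regions that were isolated was 7.38% on 2L (Wilson interval 6.11% to 8.87%) and 3.12% on 2R (2.38% to 4.09%), with 5.45% on 3L, 4.74% on 3R and 4.30% on X. 2R also had the highest density of all regions, 75.8 per Mb, and 2L the lowest, 60.1 per Mb. Gaps of 20000 bp or more took up 57.6% of the sequence of 2L and 43.8% of that of 2R. The arm with the most regions per Mb thus had the lowest share of isolated ones, and the arm with the fewest had the highest. Gaps are on average shorter where regions are denser, so the rule itself favours this order.

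The smaller of a member's gaps had a median of 30258 bp and ranged from 20012 to 155990 bp. The larger gap had a median of 51737 bp and reached 230748 bp. About as many members stood beside another member as did not: 199 (50.8%) had no isolated neighbour, 152 had 1 and 41 had an isolated neighbour on each side. The members formed 275 runs of consecutive isolated regions, of which 25 held 3 or more. Of 121 windows of 1 Mb, 6 held no member and 15 held 6 or more, with a median of 3.

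The longest run lay near the centromere-side end of 3L, where 10 isolated regions followed each other over 659 kb, from 23799624 to 24459042. Of these, 5 were found in both replicates. The strongest of those 5, at 24019968 to 24023392, had a score of 0.87, with 0.93 in replicate 1 and 0.99 in replicate 2. The last region of the run, at 24456292 to 24459042, had a gap of 230748 bp before it and was still found in both, with 0.71 in replicate 1 and 0.84 in replicate 2. A run of 6 lay at the same kind of place on 2L, from 22643598 to 22917222, and 4 of its members were found in both replicates. Among them, the region at 22689622 to 22692608 scored 1.09 in replicate 1 and 1.22 in replicate 2, and the region at 22735192 to 22739038 scored 0.76 and 1.07. The highest score of the 3L run, 2.56 at 23822370 to 23824108, belonged to a region found in neither replicate. Chromatin near fly centromeres is poor in genes and rich in repeats, and each of these runs held replicated sites. Over the 10% of arm length nearest the centromere, 50% of the 56 isolated regions and 62.9% of all large-arm regions were found in both replicates.

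Along the arms, isolated regions of the 5 arms pooled were most frequent next to the centromere and least frequent next to the telomere, an order that 3R did not share. X, 2L and 3L are numbered from telomere to centromere and 2R and 3R from centromere to telomere, so positions were measured from the centromere-side end of each sequence. The 10% of arm length nearest the centromere held 56 members, 14.3% of them (Wilson interval 11.2% to 18.1%), against 5.59% of the crowded regions (4.61% to 6.75%) and 6.75% of all large-arm regions. The 10% nearest the telomere held 25 members, or 6.38% (4.36% to 9.24%), against 14.0% of the crowded regions (12.4% to 15.6%). Between these ends the members were spread with 29 to 46 in each step of 10%. The share of an arm's members in its 10% nearest the centromere was 21.4% on 3L, 16.9% on X, 16.0% on 2R, 12.7% on 2L and 6.59% on 3R. The crowded share of the same stretch was 2.56% on 3L, 5.04% on X, 4.76% on 2R, 4.28% on 2L and 10.0% on 3R. In the 10% nearest the telomere lay 1.54% of the members of X, 4.00% on 2R, 7.14% on 3L, 7.84% on 2L and 8.79% on 3R. The crowded shares there were 17.1% on X, 16.5% on 2R, 14.7% on 3L, 14.8% on 2L and 7.66% on 3R. Over the nearest 20% of arm length the shares were closer, 21.7% of the members (17.9% to 26.0%) against 17.7% of the crowded regions (16.0% to 19.5%). On 3R this share was 19.8% of isolated and 23.2% of crowded regions, and with isolation set at 10000 bp the isolated share over all arms was 17.4%, just below the crowded one.

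**Figure D1:**
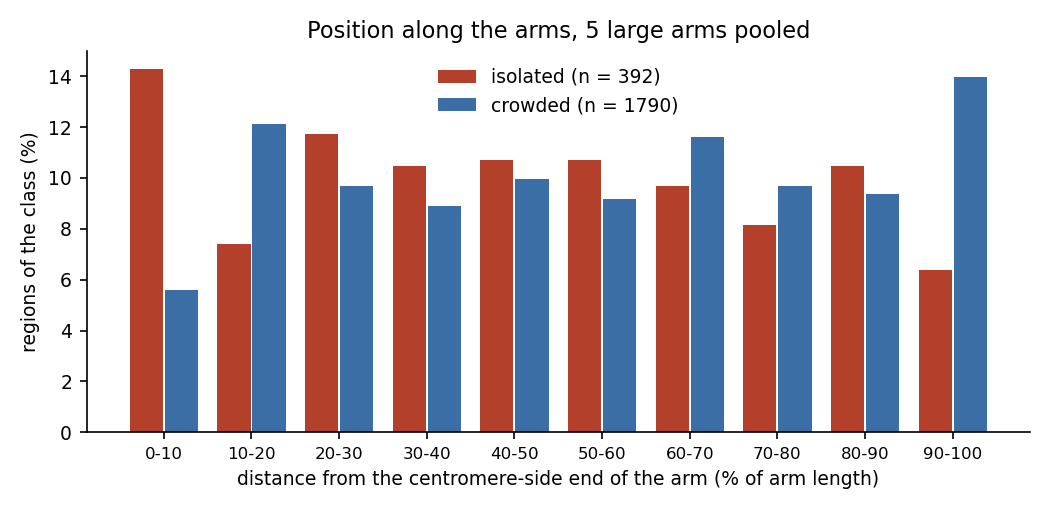
Share of isolated regions (left bar, n = 392) and of crowded regions (right bar, n = 1790) in each 10% of the arm, measured from the centromere-side end in percent of arm length, with the 5 large arms pooled. The first step held 14.3% of isolated and 5.59% of crowded regions, and the last held 6.38% of isolated and 14.0% of crowded regions.

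The strongest replicated isolated site lay on 3R at 26911068 to 26913666, near the telomere. It scored 1.70 in replicate 1 and 1.87 in replicate 2, a mean of 1.79 ± 0.12 (SD, n = 2), and 1.74 in the combined list, with gaps of 22614 and 38872 bp. Among the other members found in both replicates, the highest score in either library was 1.53. The next was the region on 2R at 357228 to 360366, in sequence next to the centromere, with 1.33 in replicate 1 and 1.53 in replicate 2 and a gap of 149164 bp before it. The third, on 2R at 6531700 to 6534398, scored 1.35 in replicate 1 and 1.46 in replicate 2. The region on 3R at 14918338 to 14923758 scored 1.37 and 1.49 in replicates 1 and 2 and was also among the widest, at 5421 bp.

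Other strong isolated sites were found on X and 2L. On X, the region at 4258934 to 4261572 scored 1.25 in replicate 1 and 1.52 in replicate 2, with gaps of 38944 and 43074 bp. The highest-scoring member of 2L, at 14250784 to 14254300, scored 1.29 in replicate 1 and 1.37 in replicate 2. The other 4 of the 10 highest that were found in both lay on 3R at 4687348 to 4690460, on X at 20630266 to 20632834, on X at 2275862 to 2278752 and on 3R at 15978894 to 15981730, and their combined scores ran from 1.16 to 1.20. Each of these 10 was a single region in each replicate, and in 9 of the 10 replicate 2 gave the higher score.

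The strongest scores were about as frequent among isolated as among crowded regions, but moderately strong ones were less frequent. A combined score of 1 or more was reached by 40 members, 10.2%, and by 187 crowded regions, 10.4%. The highest quartile of all large-arm scores, 0.79 or more, held 17.9% of isolated and 27.4% of crowded regions, and the third quartile held 16.1% of isolated and 28.7% of crowded regions. Of the 187 crowded regions with a score of 1 or more, 186 were found in both replicates. Of the 40 members, 36 were found in both. The other 4 included the highest 2 scores of all members, 2.56 each, on 3L at 23822370 to 23824108 and on 3R at 3533832 to 3534832, both found in neither replicate. Both scores stood for 13 ChIP counts over 2 input counts in lowest terms, so the input count behind them may be as low as 2. The estimate from typical input density described below instead gave 398 input counts for the 3L region and 228 for the 3R region. The lists hold only the ratio and cannot decide between these counts. The third, on 3L at 6848886 to 6849948, scored 1.06, was also found in neither replicate and stood for 23 over 10. The fourth, on 3L at 23663348 to 23665504, scored 1.20 and was found in replicate 2 only, at 1.45. This last region was named after its values were seen.

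Over all members, scores and widths were lower than in the crowded regions. The median combined score was 0.41 for isolated and 0.57 for crowded regions, a difference of -0.16 on the log2 scale, or ratios of 1.33 for isolated and 1.48 for crowded regions. The upper ends nearly met, with a 90th percentile of 1.00 in isolated and 1.01 in crowded regions, while the lower quartiles were 0.33 in isolated and 0.40 in crowded regions. The median width was 1973 bp in isolated and 2369 bp in crowded regions. Of the members, 69 (17.6%) measured less than 1301 bp, which is the minimum width in either replicate list, against 162 crowded regions (9.05%). At the wide end, 10 members (2.55%) and 113 crowded regions (6.31%) measured 4500 bp or more.

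The difference in score depended on which replicate was read. Replicate regions that overlapped isolated members had a median score of 0.65 for replicate 1 and of 0.62 for replicate 2, a mean of 0.63 ± 0.021 (SD, n = 2). Those that overlapped crowded regions had 0.70 in replicate 1 and 0.74 in replicate 2, a mean of 0.72 ± 0.028 (SD, n = 2). Among regions found in the replicate, isolated ones were therefore lower by 0.056 in replicate 1 and by 0.13 in replicate 2. These medians covered 199 of 392 members and 1264 of 1790 crowded regions in replicate 1. In replicate 2 they covered 240 members and 1481 crowded regions. Regions not found in a replicate have no score there, so the replicates were read over different sets. Over regions found in both replicates, the replicate 1 medians were 0.713 for isolated and 0.710 for crowded regions. In replicate 2 they were 0.771 for isolated and 0.822 for crowded regions. When gaps were measured inside a replicate's own list, the difference was -0.013 in replicate 1 and -0.11 in replicate 2. Among the overlapping replicate regions, the widths were lower for isolated than for crowded ones in both libraries. They were 2099 bp for isolated against 2206 bp for crowded regions in replicate 1. In replicate 2 they were 2067 bp for isolated against 2365 bp for crowded regions.

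The 5 widest isolated regions were each found in both replicates. The widest, on 2L at 5798736 to 5806012, spanned 7277 bp, scored 0.90 and was seen as 2 regions in replicate 1 and as 1 region of 7219 bp in replicate 2. The second, on 3L at 539090 to 544758, spanned 5669 bp and scored 0.97 in replicate 1 and 1.31 in replicate 2. The region on 2R at 430854 to 436022 spanned 5169 bp, with 0.94 in replicate 1 and 1.07 in replicate 2. The fifth, on 3R at 8044264 to 8049244, spanned 4981 bp and was covered only in part by each replicate, as 1 region in replicate 1 and 2 regions in replicate 2. A member that overlapped more than 1 region was rare, with 4 in replicate 1 (2.01% of those found there) and 3 in replicate 2 (1.25%), against 51 crowded regions in replicate 1 (4.03%) and 30 in replicate 2 (2.03%).

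Fewer isolated than crowded regions were found in both replicates. Of the 392 members, 176 were found in both, or 44.9% (Wilson interval 40.0% to 49.8%), against 1225 of 1790 crowded regions, or 68.4% (66.2% to 70.5%). Over all 7956 large-arm regions the share was 62.2%. When the weakest 25% of regions were dropped before gaps were measured, the difference between isolated and crowded regions was -10.5 instead of -23.5 percentage points. Another 23 members were found in replicate 1 only, 64 in replicate 2 only and 129 (32.9%) in neither, against 39 crowded regions found in replicate 1 only, 256 in replicate 2 only and 270 (15.1%) in neither. Over all large-arm regions, 20.2% were found in neither. Replicate 1 contained 50.8% of the members, against 70.6% of the crowded and 65.8% of all large-arm regions. Replicate 2 contained 61.2% of the members, against 82.7% of the crowded and 76.2% of all large-arm regions. The mean over the replicates was 56.0% ± 7.40 for isolated and 76.7% ± 8.57 for crowded regions (SD, n = 2 each).

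**Figure D2:**
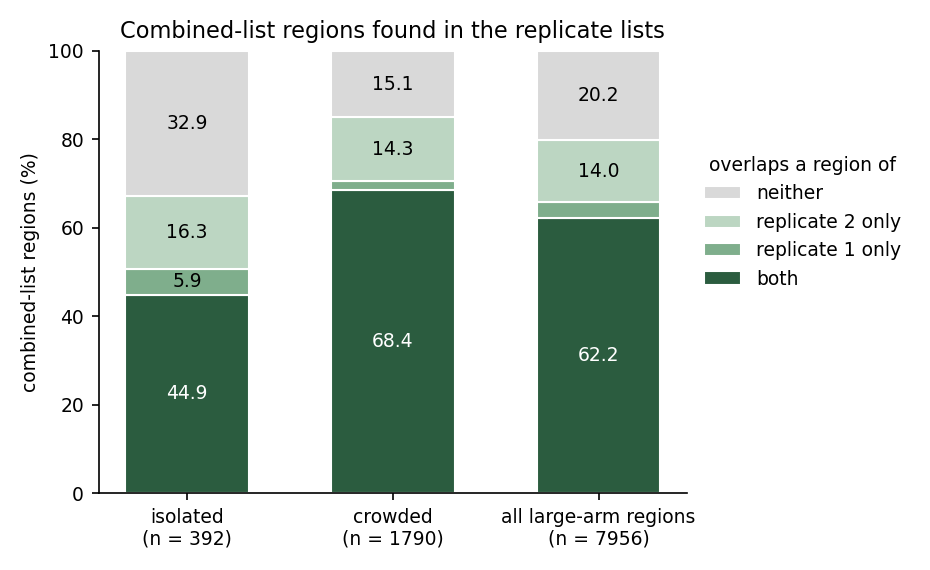
Share in percent of isolated, crowded and all large-arm regions of the combined list that overlap a region of both replicates, of 1 replicate or of neither. Both were overlapped by 44.9% of isolated and 68.4% of crowded regions, and neither by 32.9% of isolated and 15.1% of crowded regions.

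Width and score moved with this difference. Regions found in both replicates were wider and stronger than the others in each class. Among members, the median width was 2372 bp for those found in both and 1279 bp for those found in neither, and the median score 0.68 and 0.36. Among crowded regions the widths were 2653 and 1275 bp and the scores 0.72 and 0.37. All 69 members narrower than 1301 bp were found in neither replicate. Of the 162 crowded regions under that width, 142 were found in neither, 4 in replicate 1 only and 16 in replicate 2 only.

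Within classes of width, isolated and crowded regions were found in both replicates about equally often. In the narrowest quartile of all large-arm regions, up to 1807 bp, the share was 1.23% of 163 isolated and 0.583% of 343 crowded regions. In the second it was 56.0% of 109 isolated regions (46.6% to 64.9%) and 58.5% of 412 crowded regions (53.7% to 63.2%). In the third it was 95.3% of isolated and 93.7% of crowded regions, and in the widest 92.9% of isolated and 96.0% of crowded regions, with overlapping intervals. The narrowest quartile held 41.6% of the members and 19.2% of the crowded regions, and the widest held 14.3% of the members and 29.6% of the crowded regions.

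Within score quartiles the shares were somewhat lower for isolated regions. They were 6.62% of isolated and 10.4% of crowded regions in the lowest quartile, and 40.7% of isolated and 45.3% of crowded regions in the second. In the third they were 93.7% of isolated and 96.9% of crowded regions. In the highest quartile, 63 of 70 isolated regions (90%, interval 80.8% to 95.1%) and 489 of 490 crowded regions (99.8%, 98.9% to 100.0%) were found in both. Of the 7 strong isolated regions that were not, 5 measured 1807 bp or less. When width and score quartiles were crossed, 8 combinations held at least 20 regions of each class and together contained 346 of the members. In 5 of the 8, both shares were under 3% or both over 97%, which leaves no room for a difference. The other 3 held 105 members, all from the second width quartile. Their shares were 23.5% of isolated and 22.9% of crowded regions in the lowest score quartile, 62.0% of isolated and 62.8% of crowded regions in the second and 95.2% of isolated and 92.5% of crowded regions in the third. The limit of 20 regions left out the combinations that held the 7 strong members not found in both.

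**Figure D3:**
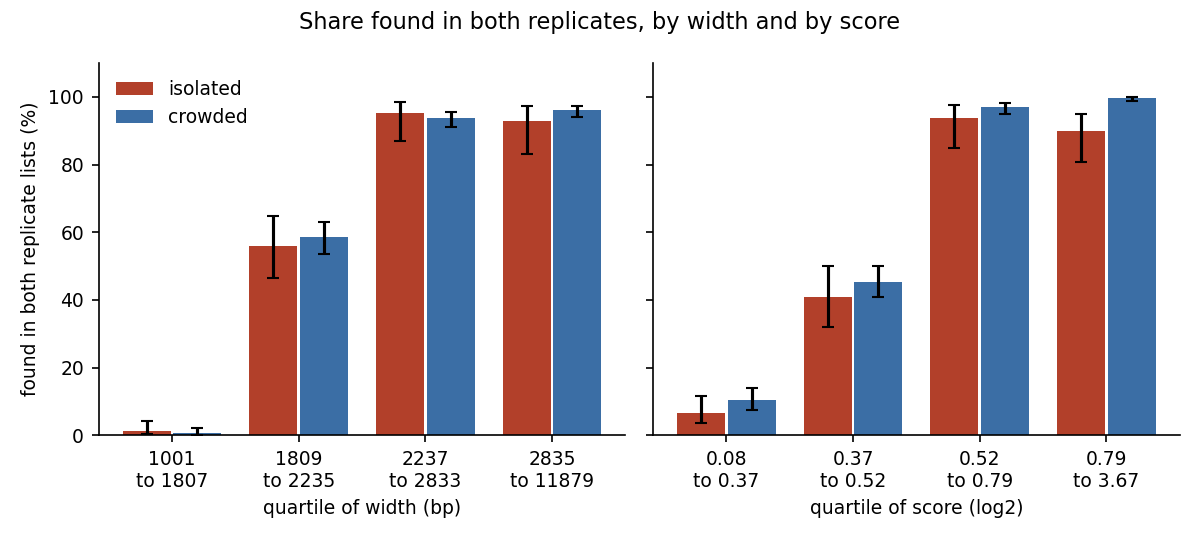
Share of isolated (left bar of each pair) and crowded (right bar) regions found in both replicate lists, in percent, by quartile of width in bp and by quartile of log2 score over all large-arm regions, with 95% Wilson intervals. The bars of a pair are close in every width quartile, from 1.23% of isolated and 0.583% of crowded regions in the narrowest to 92.9% of isolated and 96.0% of crowded regions in the widest.

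The share found in both replicates was nearly level up to a smaller gap of 5000 bp and lower beyond. It was 65.5%, 64.1% and 64.9% for smaller gaps under 1000 bp, from 1000 to 2500 bp and from 2500 to 5000 bp. It was 61.8% from 5000 to 10000 bp and 53.0% from 10000 to 20000 bp. Among members it was 50.3% of 193 regions with a smaller gap of 20000 to 30000 bp, 37.7% of 106 up to 40000 bp, 45.3% of 64 up to 60000 bp and 34.5% of 29 beyond (Wilson interval 19.9% to 52.7%). The intervals of these last 4 classes overlapped, and whether the share changed with the gap among members was not tested. The median width of the classes was 2307 bp for the smallest gaps and 1691 bp for the largest.

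**Figure D4:**
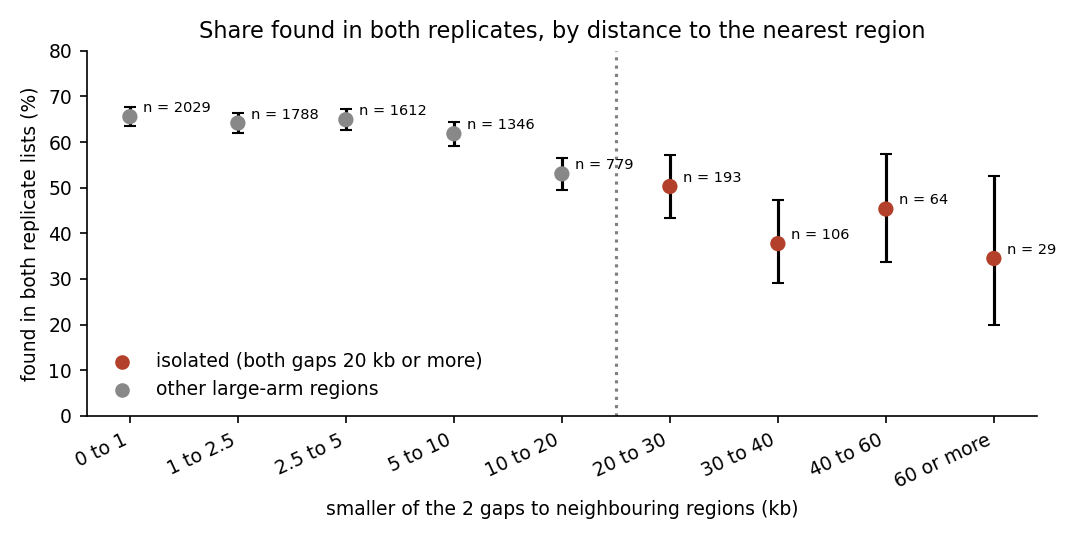
Share of large-arm regions found in both replicate lists, in percent, by the smaller of the gaps to the neighbouring regions in kb, with 95% Wilson intervals and the number of regions. Points right of the dotted line are the isolated regions, which lie between 34.5% and 50.3%, and points left of it lie between 53.0% and 65.5%.

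Of the 5 most isolated regions, 3 were found in neither replicate. The region with the largest smaller gap, 155990 bp, on 3L at 24224332 to 24225544, scored 0.33 and was found in neither replicate. The second, on X at 21636330 to 21637336, with a smaller gap of 128064 bp, scored 0.48 and was also found in neither. The third was replicated: on 3L at 14401686 to 14404646, with gaps of 133332 and 100536 bp, it scored 0.58 in replicate 1 and 0.76 in replicate 2. So was the fourth, on X at 22225546 to 22227736, with 1.01 in replicate 1 and 0.86 in replicate 2 and a smaller gap of 88354 bp. The fifth, on 3L at 6344926 to 6346366, scored 0.31 and was found in neither.

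The regions nearest the limit of the rule had similar gaps by construction and a range of scores. Just inside, the region on 3L at 1062072 to 1063388, with a smaller gap of 20012 bp, scored 0.30 and was found in replicate 1 only. That on X at 18154654 to 18156778, with 20026 bp, scored 0.70 and was found in both, and that on X at 7501810 to 7503062, with 20048 bp, scored 0.30 and was found in neither. The 3 just outside were all found in both. They were the region on 3L at 20021004 to 20023120, with 19970 bp and a score of 0.47, that on 2R at 3238822 to 3241210, with 19888 bp and 0.58, and that on 3L at 2552608 to 2555962, with 19866 bp and 0.89.

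Where isolated regions were found in both replicates, the 2 libraries gave similar scores. Over the 176 members, scores had a median of 0.71 for replicate 1 and of 0.77 for replicate 2, a mean of 0.74 ± 0.041 (SD, n = 2). For the 1225 crowded regions found in both it was 0.71 and 0.82, a mean of 0.77 ± 0.079 (SD, n = 2). Replicate 2 was higher by a median of 0.051 in isolated and 0.10 in crowded regions, and it was the higher one in 109 of 176 isolated pairs. The robust SD of the difference was 0.15 in isolated and 0.15 in crowded pairs, and midpoints lay a median of 70.8 bp apart in isolated and 85.5 bp apart in crowded pairs. Across the 176 members, Pearson's r was 0.85 and Spearman's rho 0.81, as a description of regions that share their libraries and are not independent. The pair farthest apart was on 3L at 17693020 to 17695126, with 0.91 in replicate 1 and 0.36 in replicate 2, and 175 of the 176 pairs lay within 0.5 of each other.

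**Figure D5:**
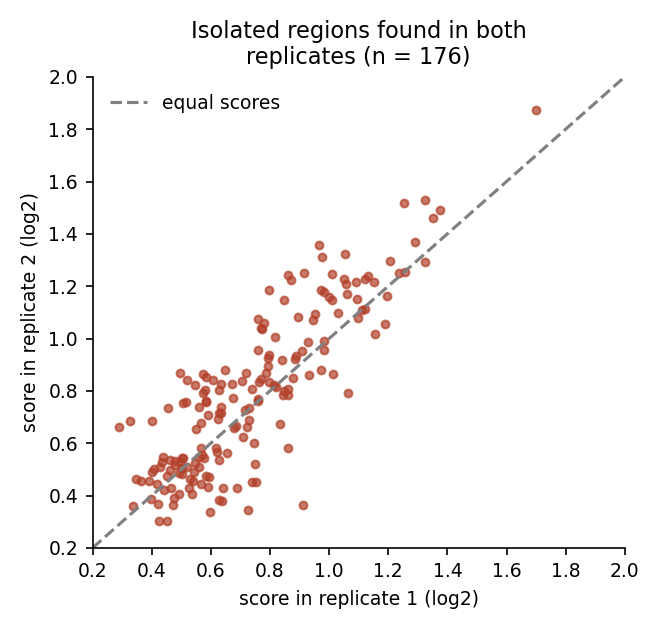
Log2 scores of the 176 isolated regions found in both replicates, replicate 1 on the horizontal and replicate 2 on the vertical axis, 1 point per region, with a dashed line of equal scores. The points follow the line, with 109 of 176 above it, and the 3R region at 1.70 and 1.87 stands apart at the upper end.

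Isolation itself was also read from the replicate lists alone. With gaps measured inside each list, 537 of 5436 large-arm regions of replicate 1 (9.88%) and 486 of 6170 of replicate 2 (7.88%) were isolated. Of the 199 members found in replicate 1, 195 were isolated there, as were 233 of the 240 found in replicate 2. Of the 176 members found in both, 168 were isolated in both, or 42.9% of all members. The rule makes such counts high in advance. Members have no combined-list region nearer than 20000 bp, and the replicate lists hold fewer regions than the combined list. A member not found in a replicate cannot be isolated in it, so the 42.9% could not exceed the 44.9% found in both. Of the isolated regions of replicate 1, 302 (56.2%) overlapped an isolated region of replicate 2, which is 62.1% of those of replicate 2. Of the isolated regions of replicate 1, 90.7% were present in replicate 2 in any setting, against 96.8% of its crowded regions, and of those of replicate 2, 72.6% were present in replicate 1, against 83.6% of its crowded regions.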

How the data were processed

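Regions of significant enrichment were deposited by the authors as 1 list per ChIP replicate (5576 and 6320 regions) and 1 combined list for the replicate set (8224 regions), on FlyBase r5 per the file headers. The submitters' processing notes name Bowtie 0.12.7. The region caller, its threshold and the way of combining replicates are items not given in the sources used here. The deposited score of each region was read as a log2 ratio, since 2 to its power, divided by 0.908, 0.885 and 0.927 in the combined, replicate 1 and replicate 2 lists, equalled a quotient of 2 integers, the lower one no larger than 3000, in 100% of regions (relative tolerance 2e-10). Numerators were taken as ChIP and denominators as input counts, which the files do not state. Total read numbers are not in the lists, so library depth is unknown. Counts were estimated from the lowest terms and the typical input density, with medians of 607.5 ChIP and 410.5 input counts per isolated region, against 888.5 and 516 per crowded region. This gave counting errors of 0.092 and 0.080 on the log2 scale. The estimate scales input counts with width, so these differences between isolated and crowded regions come in part from their widths.

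Gaps, overlaps and Wilson intervals were computed with Python 3.11.15, pandas 2.3.3 and statsmodels 0.14.6, and the code was tested on simulated data. A gap is the next region's start minus the previous region's end. Regions named by coordinates were the 10 highest-scoring members found in both replicates, the 5 widest, the 5 with the largest smaller gap, the highest of each arm, the 3 highest found in neither replicate, and the 3 on each side of the 20000 bp limit. The runs and the most discordant pair were named after their values were seen. The members and lists were chosen with earlier results of these data known. The gene table at hand is on release 6, so no gene or sequence was assigned to a region, and planned comparisons with genes and GAGAG motifs were left out.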

Additional observations from a re-analysis of the deposited data

Results flagged for a closer look

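Regions outside the 5 large arms were not part of the comparison, and many of them were isolated by the same gaps. On chromosome 4, the heterochromatic sequences and the unplaced sequence U, 108 of 268 regions (40.3%) had both gaps of 20000 bp or more. Of these, 63 lay on U, where 14 (22.2%) were found in both replicates, and 8 lay on chromosome 4, where 6 were. On 2RHet, 3LHet and 3RHet together with 2LHet there were 13, 14, 9 and 1. Gaps on U do not have the meaning they have on an arm, since U joins unplaced pieces.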

How the results depend on the processing

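Over 18 alternative settings, of which 7 were added after the data had been seen, 101 of 133 values stayed within the spread between replicates, the counting interval or, for the number of regions, 1.5 times, and 1 changed direction. The share found in the replicate lists was lower in isolated than in crowded regions in 18 of 18 alternatives. With a ChIP replicate left out, this was the share found in the other list alone, and otherwise the share found in both. The median score was lower in 16 of 16 and the median width in 16 of 16. With isolation at 10000 bp there were 1171 isolated regions, of which 50.3% were found in both replicates (-18.1 percentage points from the crowded), with medians of 0.44 and 2017 bp and 17.4% in the 20% of arm length nearest the centromere. That share minus the crowded one was then -0.288 points, against 3.97 as reported. At 30000 bp there were 199, with 39.7%, 1881 bp and 27.1% (9.43 points above the crowded). With the weakest 25% of regions dropped the share was 72.3% (-10.5 points), the median score 0.61 (difference -0.061) and the width 2249 bp. Counting only neighbours found in both replicates gave 1071 regions, 51.3%, 0.45 and 2047 bp. Among regions of 1301 bp or more the share was 54.5% and the width 2057 bp, and without 2R the width was 1948 bp. Leaving out either ChIP replicate gave a share of 50.8% to 61.2% of the combined-list members found in the remaining list. The difference in that share from the crowded was -21.5 to -19.8 points. With gaps measured inside the remaining list there were 486 to 537 isolated regions. Their median score was 0.64 to 0.67, a difference from the crowded of -0.11 to -0.013. Their width was 2097 to 2102 bp, a difference of -268 to -97 bp. In the 20% of arm length nearest the centromere lay 19.6% to 24.1% of them, 4.53 to 7.64 points above the crowded. The smallest differences in score and width came without replicate 2. The settings differ in the samples, thresholds and regions used, and the cause of these shifts was not tested. No paired analysis was possible because no result comes from a test and the input libraries have no list of their own. Depth is known only inside regions.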
